A study of Mus musculus with 6 samples.

Results

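The complement system is a chain of plasma and cell-surface proteins that tags and lyses microbes and damaged cells. Its classical pathway starts when C1q binds a target and the proteases C1r and C1s cut C4 and C2, its lectin pathway starts from collectins and the MASP proteases, and its alternative pathway runs on factor B, factor D and properdin. All routes meet at the cleavage of C3, and inhibitors in plasma and on host membranes hold the cascade back. Most circulating components are made in the liver, while many other cell types, fibroblasts and glia among them, make some locally.

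A set of 9 complement genes and regulators (C1ra, C1s1, C4b, C3, Serping1, Cd46, Cd55, Cd59a and C1qbp) were taken by symbol from a table of RNA-seq read counts, 9 of its 35275 gene IDs. The cells were Melb-a, an immortal mouse melanoblast line of C57BL/6J genotype that is labelled as skin melanocytes. In both groups, cells near 70% confluence were moved to DMEM with 10% serum, 2 nM of the melanocortin analog NDP-alpha MSH and 200 nM of the phorbol ester phorbol-myristate-acetate. For 48 h this medium held 10 µM iBRD9, a compound that binds the bromodomain of the SWI/SNF subunit BRD9 (3 samples), or the vehicle DMSO (3 samples). The treatment label of the DMSO samples reads differentiation with vehicle. The design text calls the samples independent but name no cultures, so the spread between them may be partly technical. The model is 1 cell line with 1 compound at 1 dose.

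The 9 genes were chosen by role, with the iBRD9 to DMSO fold changes of these same counts already known, and C4b was then known to be low with iBRD9. Their values are therefore a description and carry no p-value, and their calls support nothing. The iBRD9 libraries held 22846391 to 29680952 counts and the DMSO libraries 23248475 to 26675006. Expression is given in CPM, the usual depth-scaled read count, with library sizes adjusted by TMM (trimmed mean of M-values). At these depths 3 reads, the limit that a count of 0 allows, came to 0.0974 to 0.127 CPM in the iBRD9 libraries and 0.118 to 0.130 CPM in the DMSO libraries, for counting error only. All 10 melanocyte markers checked were tested, of which 6 were called lower with iBRD9 and 1 higher. Of all tested genes, 30.9% were called lower and 29.8% higher. Tyr had the largest fall of the 10 markers (log2 fold change -2.61). The 10 summed to 15780 to 17390 CPM with iBRD9 and 17290 to 19740 CPM with DMSO, and much of that sum was Dct, the marker that was higher (7520 CPM with iBRD9 and 6070 CPM with DMSO). The most distant DMSO library was replicate 1 (chi-square per degree of freedom of 29.2 and 37.5 against the others, and 3.06 between those). Replicate 1 was also the most distant iBRD9 library (6.33 against each of the others, and 1.93 between those).

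Only C1qbp was abundant, and C4b had by far the largest difference of the 9. The 9 genes held 2371 to 2908 reads per iBRD9 library, against 3295 to 3664 per DMSO library. C1qbp took 94.3% to 96.0% of these reads with iBRD9 and 88.1% to 90.1% with DMSO. Of the reads on the other 8 genes, C4b took 16.3% to 20.8% with iBRD9 and 68.9% to 77.9% with DMSO. A filter on low counts, which asks for about 10 reads in at least 3 libraries, was passed by 6 members (C1ra, C1s1, C4b, Cd46, Cd59a and C1qbp) and not by C3, Serping1 and Cd55.

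**Figure D1:**
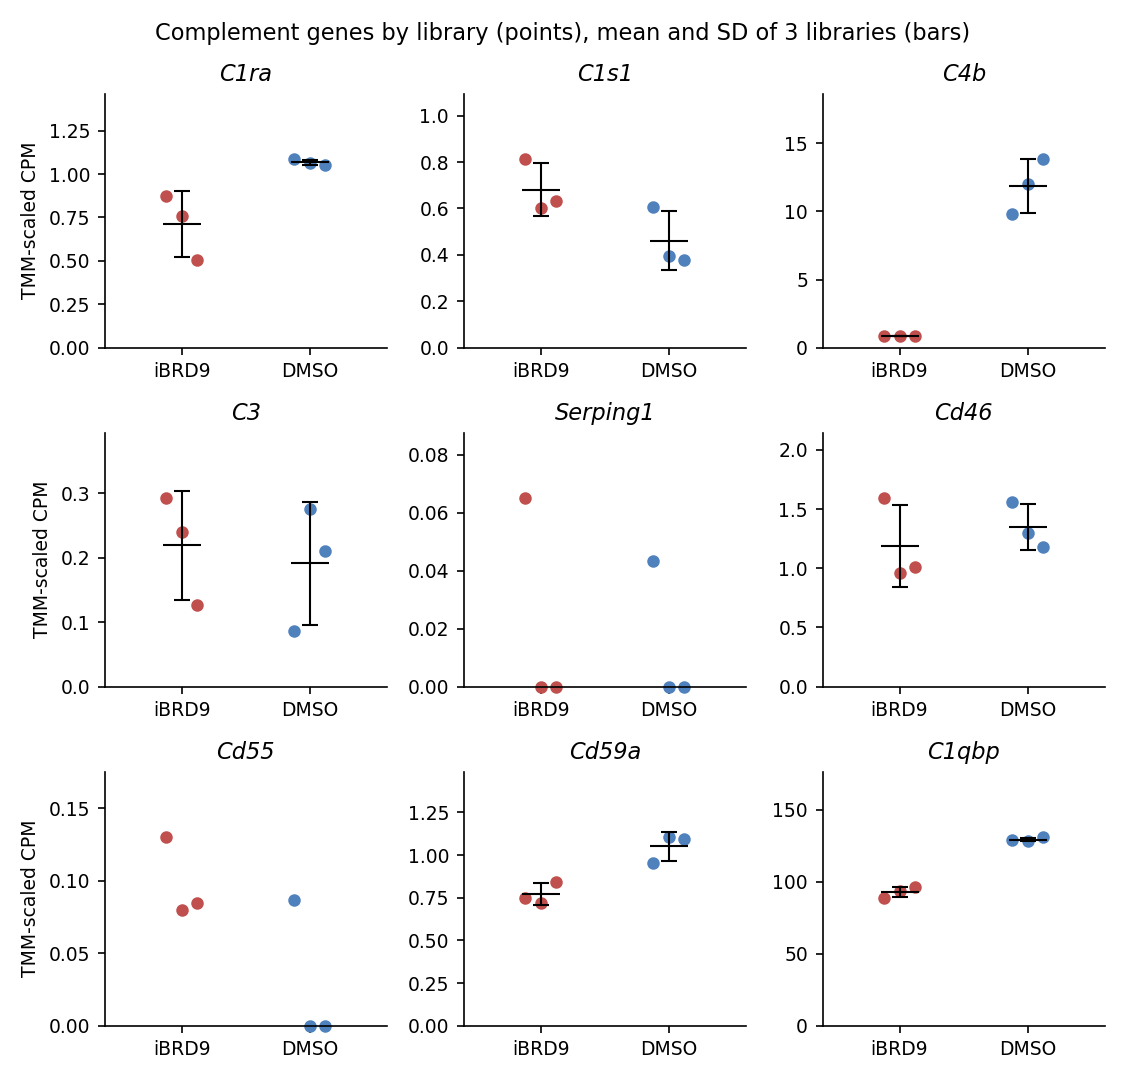
TMM-scaled CPM of the 9 genes in each library (points) for iBRD9 and DMSO, with the mean and SD of 3 libraries as bars. The bars are left out for Serping1 and Cd55, which have libraries at 0. The vertical scales differ, and C4b and C1qbp separate the groups by far more than their spread.

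C4b and C1qbp were called lower with iBRD9 (an adjusted p under 0.05 in a fit across 13602 genes), and no member was called higher (0), while 60.7% of all tested genes were called, with 29.8% of tested genes higher and 30.9% lower. With library size alone as the scaling, 4995 genes were called higher and 3388 lower, against 4057 and 4205 with TMM. Since the genes were chosen with this contrast known, nothing is read from their count. The libraries of the groups did not overlap for C1ra, C4b, Cd59a and C1qbp, 4 of the 6 members that passed the filter, against 68.0% of all tested genes.

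C4b and its copy C4a lie close together on chromosome 17, and mRNAs of the pair are told apart only at the bases that differ. Over 5367 aligned bases of their GENCODE M21 transcripts (GRCm38), C4b and C4a differed at 207, an identity of 96.1%. The gap-free 60-base stretch of the C4b coding sequence with the most differences, bases 2705 to 2764 from the start codon, is given here with the matching bases 2755 to 2814 of the C4a transcript, since it is the kind of stretch from which reads of the pair can be separated. Capitals mark the 13 bases that differ.
C4b: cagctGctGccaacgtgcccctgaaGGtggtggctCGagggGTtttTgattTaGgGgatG
C4a: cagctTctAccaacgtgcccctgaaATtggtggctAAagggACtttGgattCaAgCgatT
Elsewhere the pair is alike for long runs, of up to 433 bases. Of all 100-base windows of the C4b transcript 16.5% occur unchanged in C4a, and of all 150-base windows 8.26%, so part of the reads of either gene could not be placed by sequence.

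C4b (ENSMUSG00000073418), which encodes the fourth component, the substrate of C1s whose larger fragment joins the classical and lectin C3 convertase, was low in every iBRD9 library. It stood at 0.876, 0.840 and 0.844 CPM in the iBRD9 libraries, against 9.80, 11.98 and 13.8 CPM in the DMSO libraries. The groups were far apart, and the iBRD9 libraries differed among themselves by less than the DMSO libraries did. With only 27, 21 and 20 reads in the iBRD9 libraries, counting error alone exceeds the spread seen there, so nothing is read from that spread. The means were 0.853 ± 0.0199 CPM with iBRD9 and 11.9 ± 2.01 CPM with DMSO (SD, n = 3 each), a log2 fold change of -3.79 (SE 0.182), and 0.110% of tested genes had a lower one. In reads, 68 were assigned to C4b over the iBRD9 libraries and 858 over the DMSO libraries, a ratio of 0.0719 after scaling (exact 95% interval for counting error 0.0554 to 0.0922). The log2 fold change ran from -3.92 to -3.67 when any 1 library was left out.

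C4a (ENSMUSG00000015451), the copy historically named sex-limited protein, differed in the other direction. RefSeq lists it as a transcribed pseudogene, and the GENCODE transcript compared here is not marked as coding. It had 25, 18 and 34 reads in the iBRD9 libraries, against 1, 4 and 0 in the DMSO libraries. C4a was thus near the floor in every DMSO library and above it in every iBRD9 library. The ratio of summed reads, 77 against 5, was 14.0 after scaling (exact 95% interval for counting error 5.74 to 44.3). C4a passed the filter only through its iBRD9 libraries, where it is high, so its call is not used and no p-value is given. Its fitted log2 fold change of 3.73 (SE 0.654) is a description, and became 5.22 without DMSO replicate 2, which held 4 of the 5 DMSO reads.

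The C4a share of the reads of the pair was 48.1%, 46.2% and 63.0% in the iBRD9 libraries, against 0.441%, 1.30% and 0% in the DMSO libraries. The exact 95% intervals (Clopper-Pearson) spanned 30.1% to 75.7% with iBRD9 and reached 3.29% at most with DMSO, and cover counting error only. How the authors' counting treated reads that match both copies is not stated in the sources used here, so the split between C4b and C4a cannot be checked. C4a reads were few in the DMSO libraries, where C4b reads were many. With the counts of the pair added together, the log2 fold change was -2.70. Both genes were near 1 CPM with iBRD9, C4a at 0.989 ± 0.389 CPM and C4b at 0.853 ± 0.0199 CPM (SD, n = 3 each).

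**Figure D2:**
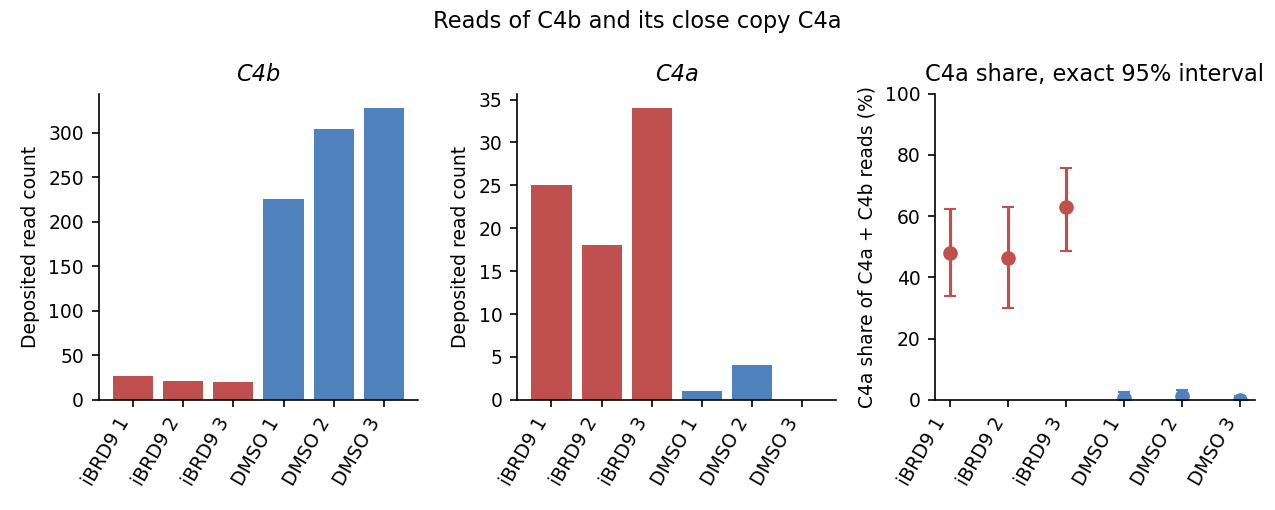
Deposited read counts of C4b and C4a in each of the 6 libraries (bars), and the C4a share of the reads of the pair in percent with its exact 95% interval. C4b is high in the DMSO libraries (226 to 328 reads) and C4a in the iBRD9 libraries (18 to 34 reads).

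Genes of the same cluster on chromosome 17 had smaller differences than either copy. Stk19 was lower (log2 fold change -0.29, SE 0.0834, edgeR adjusted p = 0.0159), and the RNA helicase gene Skiv2l was higher (0.75, SE 0.0611, edgeR adjusted p = 3.22e-05). Dxo (0.23) and Nelfe (-0.12) did not pass the test. The steroid hydroxylase gene Cyp21a1 had no read in any library (0).

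The gene whose pattern over the 6 libraries was nearest to that of C4b was Cyp4b1, a cytochrome P450, out of 9941 compared. Their log2 CPM values, each centred on the gene's mean, differed by a root mean square of 0.0772. Slc16a7, a monocarboxylate transporter gene, was also among the nearest, at 0.235. A list of 10 Schwann cell markers summed to 137 to 160 CPM with iBRD9 and 515 to 581 CPM with DMSO. Of its 7 tested markers 6 were lower and none higher (0), against 30.9% and 29.8% of all tested genes. No marker was at 0 in all libraries, and the part of these markers in the C4b result was not tested. In bulk RNA, fewer cells of a type and less RNA per cell cannot be told apart.

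The genes of the C1 proteases, the step before C4, were low in both groups, at about 1 CPM or less. C1ra (ENSMUSG00000055172), which encodes the protease that activates C1s, stood at 0.876, 0.760 and 0.506 CPM in the iBRD9 libraries, against 1.08, 1.06 and 1.05 CPM in the DMSO libraries. Every iBRD9 library was below every DMSO library, and the log2 fold change was -0.56 (SE 0.266), which was not called. Its copy C1rb, 98.0% identical over the aligned transcripts with a shared run of 757 bases, had 1, 4 and 2 reads with iBRD9, against 10, 3 and 10 with DMSO. With the close copies summed, C1ra had a log2 fold change of -0.77 and was called.

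C1s1 (ENSMUSG00000038521), the gene of the protease that cuts C4 and C2, stood at 0.811, 0.600 and 0.633 CPM with iBRD9, against 0.607, 0.394 and 0.379 CPM with DMSO. The groups overlapped, and the log2 fold change of 0.58 (SE 0.316) was not called. C1s1 passed the filter only through its iBRD9 libraries. C1s2, its copy at 95.9% identity, had 0.442 ± 0.164 CPM with iBRD9 and 0.448 ± 0.150 CPM with DMSO (SD, n = 3 each; log2 fold change 0.02, SE 0.411, edgeR adjusted p = 0.977). With C1qa, C1qb and C1qc, which encode the recognition subunit, no read was found in any library (0).

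C3 (ENSMUSG00000024164), the central component on which all routes converge, had 9, 6 and 3 reads in the iBRD9 libraries, against 2, 7 and 5 in the DMSO libraries. The ranges overlapped, and the ratio of 18 to 14 summed reads was 1.17 after scaling, with an exact 95% interval of 0.548 to 2.54. A difference within that interval was not detectable at this depth. C2, which supplies the protease of the classical convertase, was higher than C3 in both groups per length, at 1.38 and 1.48 RPKM (CPM per kilobase of exon) with iBRD9 and DMSO, against 0.0427 and 0.0372 RPKM for C3.

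Regulators of the cascade were likewise low. Serping1 (ENSMUSG00000023224), the gene of the inhibitor of C1r, C1s and the MASP proteases, had 2, 0 and 0 reads with iBRD9, against 1, 0 and 0 with DMSO. It was at or under the floor throughout, so no fold is given. Cd55 (ENSMUSG00000026399), the gene of decay-accelerating factor, which takes convertases apart, had 4, 2 and 2 reads with iBRD9, against 2, 0 and 0 with DMSO. The ratio of its summed reads was 3.63 with an interval of 0.725 to 35.1, too wide to give a direction. Its copy Cd55b had no read (0).

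Cd46 (ENSMUSG00000016493), the gene of a cofactor for C3b and C4b cleavage that in mice is known mainly from the testis, stood at 1.59, 0.960 and 1.01 CPM with iBRD9, against 1.56, 1.30 and 1.18 CPM with DMSO. The groups overlapped (log2 fold change -0.16, SE 0.266). Cd59a (ENSMUSG00000032679), whose product blocks the last step, the assembly of the lytic pore, stood at 0.746, 0.720 and 0.844 CPM with iBRD9, against 0.954, 1.10 and 1.10 CPM with DMSO. Its groups did not overlap, and the log2 fold change of -0.45 (SE 0.230) was not called. Its copy Cd59b, at 85.0% identity, had 10 reads over the iBRD9 libraries and 8 over the DMSO libraries.

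C1qbp (ENSMUSG00000018446) encodes a protein first found by its binding to the globular heads of C1q, which resides mainly in the mitochondrial matrix. It stood at 89.0, 93.7 and 96.0 CPM in the iBRD9 libraries, against 129, 128 and 131 CPM in the DMSO libraries. All iBRD9 libraries were below all DMSO libraries. The means were 92.9 ± 3.57 and 129 ± 1.30 CPM (SD, n = 3 each), with a log2 fold change of -0.48 (SE 0.0550), and 18.8% of tested genes had a lower one. With library size alone as the scaling, which moved the median of all genes to 0.11, the value was -0.37. C1qbp overlaps Rpain in RefSeq, where reads cannot be told apart without strand, and the extent of the overlap was not measured. Rpain, at 14.6 CPM with iBRD9 and 11.7 CPM with DMSO, was higher with iBRD9 (log2 fold change 0.32, SE 0.0925, edgeR adjusted p = 0.0170). The genes with the nearest pattern were Psme3 (root mean square difference 0.0244), Arhgdia (0.0264) and Dclre1a (0.0271), of 9941 compared.

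Per length, C4b moved furthest in the order of the members between the groups. C1s1 and Cd46 also traded places, as did Cd55 and Serping1, in each case between neighbours whose libraries overlapped. With iBRD9 the order was C1qbp (32.9 RPKM), Cd59a (0.425), C1ra (0.240), C1s1 (0.218), Cd46 (0.156), C4b (0.150), C3 (0.0427), Cd55 (0.0202) and Serping1 (0.00930). In that order, libraries overlapped between neighbours from C1ra to C4b and from C3 to Serping1. With DMSO the order was C1qbp (45.7 RPKM), C4b (2.08), Cd59a (0.580), C1ra (0.358), Cd46 (0.177), C1s1 (0.147), C3 (0.0372), Serping1 (0.00622) and Cd55 (0.00596). There the overlaps were between Cd46 and C1s1 and among the last 3. C1qbp exceeded 89.4% of tested genes with iBRD9 and 92.3% with DMSO, while C4b exceeded 3.45% with iBRD9 and 30.9% with DMSO.

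**Figure D3:**
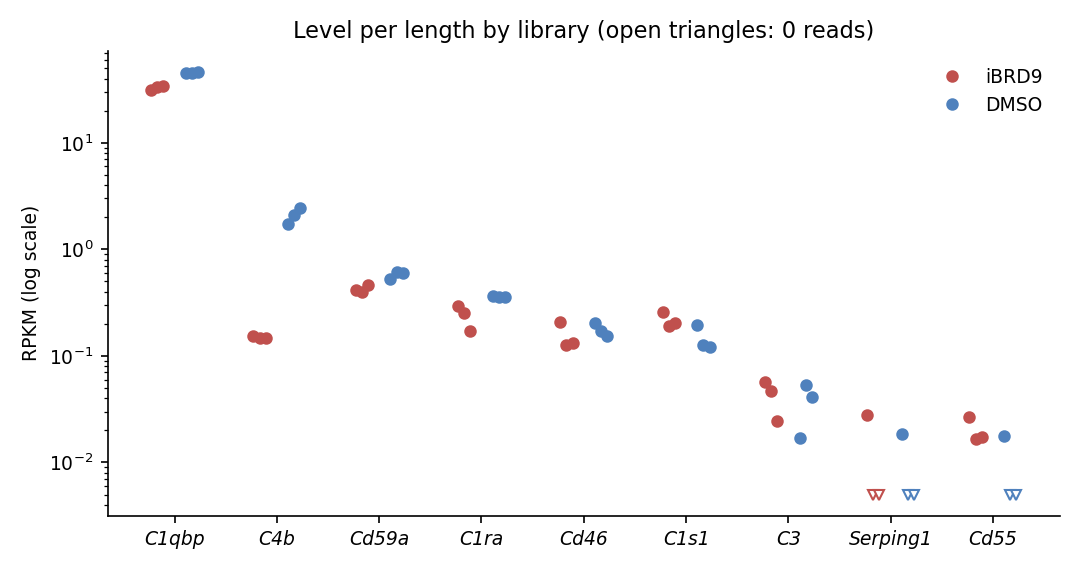
RPKM of the 9 genes in each library on a log scale, by group, with open triangles at the foot for libraries with 0 reads. C1qbp lies above all others in both groups, and C4b is second with DMSO and among the low members with iBRD9.

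Most other complement genes had too few reads to be tested. Of 53 further components, regulators and receptors, 52 were in the table, 13 of these had no read in any library, and 13 passed the filter. Of those 13, 4 were called higher with iBRD9, 3 lower and 6 did not pass the test, while 29.8% of all tested genes were called higher and 30.9% lower. C4a and Clu, 2 of the 4 called higher, passed the filter only through the iBRD9 libraries where they are high, so the count of higher calls is not read as a result. The median log2 fold change of the 13 was 0.09, against 0.01 over all tested genes. Cfp, the gene of properdin, which stabilises the alternative convertase, rose to 7.82, 6.88 and 6.96 CPM with iBRD9, against 5.08, 2.96 and 2.44 CPM with DMSO (log2 fold change 1.05, SE 0.240, edgeR adjusted p = 0.00529). The groups did not overlap, and the DMSO libraries spread more than the iBRD9 libraries.

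Masp1, the gene of a protease of the lectin pathway, rose to 21.6, 24.2 and 25.7 CPM with iBRD9, against 13.8, 13.7 and 15.7 CPM with DMSO (0.73, SE 0.0975, edgeR adjusted p = 0.000379). Colec11, which encodes a lectin that carries such proteases, fell to 3.08, 3.28 and 3.04 CPM with iBRD9, against 4.34, 4.37 and 4.42 CPM with DMSO (-0.48, SE 0.129, edgeR adjusted p = 0.0114). Each of these genes separated the groups, as did 68.0% of all tested genes. Of the 13 tested complement genes outside the members, 7 did so, C1rl among them. C1rl (0.31), C2 (-0.09), C8g (0.02) and C1s2 did not pass.

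Of the regulators outside the members, Clu and Cr1l passed the filter. Cr1l encodes Crry, the regulator of C3 and C4 cleavage that is broadly expressed on mouse cells, and per length it stood above Cd46, Cd55 and Cd59a in both groups (1.99 RPKM with iBRD9 and 3.44 RPKM with DMSO). It fell to 20.3, 21.5 and 19.96 CPM with iBRD9, against 35.6, 37.2 and 34.0 CPM with DMSO (log2 fold change -0.79, SE 0.0714, edgeR adjusted p = 5.17e-05). Its gene overlaps Cd46 in RefSeq, so reads at the overlap may not be assignable to 1 gene. Clu, the gene of clusterin, an inhibitor of the lytic pore in plasma, had 22, 14 and 14 reads with iBRD9, against 2, 6 and 3 with DMSO, where it was near the floor. The ratio of its summed reads was 4.13 after scaling (exact 95% interval for counting error 2.12 to 8.79), and since it passed the filter only through its iBRD9 libraries no p-value is given.

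Among the 3 tested receptors, Itgb2, the shared chain of complement receptors of leukocytes, fell to 0.617, 1.04 and 1.05 CPM with iBRD9, against 0.998, 2.17 and 3.37 CPM with DMSO (-1.29, SE 0.433, edgeR adjusted p = 0.0302). The groups overlapped, and the call was lost when DMSO replicate 2 (adjusted p = 0.0634), DMSO replicate 3 (-0.85, adjusted p = 0.1003) or any 1 iBRD9 library (adjusted p = 0.0602 to 0.120) was left out. Calr, the gene of the chaperone calreticulin, which also binds C1q, stood at 1721, 1744 and 1724 CPM with iBRD9, against 1835, 1465 and 1346 CPM with DMSO (0.16, SE 0.108, edgeR adjusted p = 0.226). It was called without DMSO replicate 1 (0.29, adjusted p = 1.00e-05, with 0.629 the highest of its alternatives). Cr2 (0.09) did not pass.

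**Figure D4:**
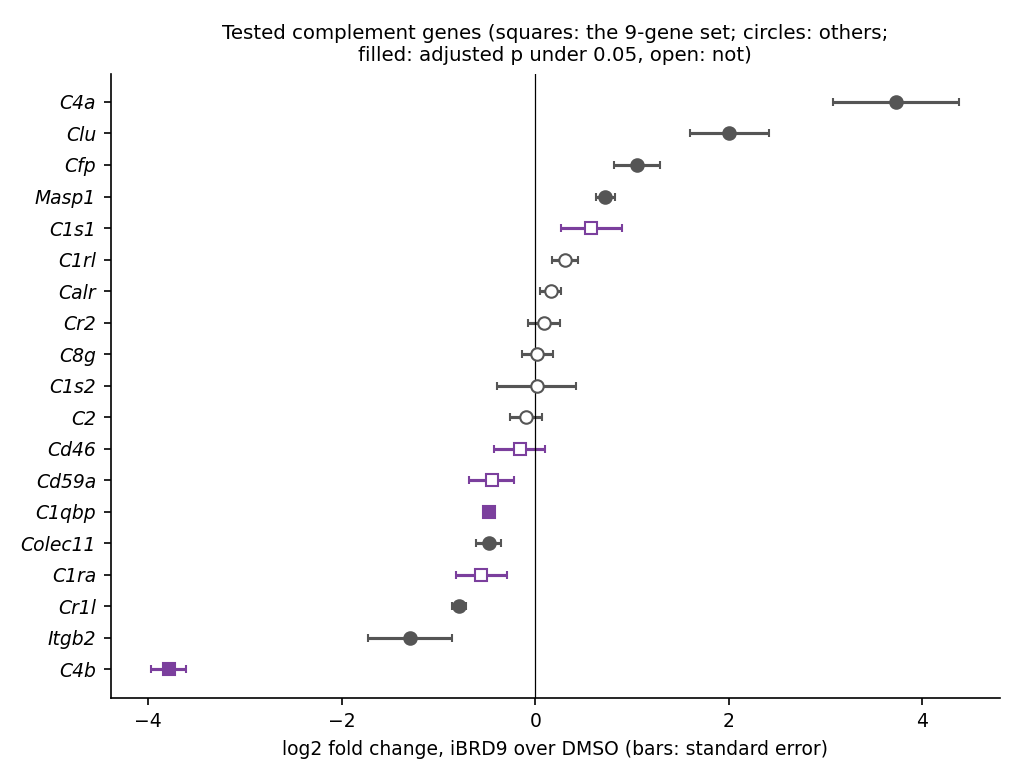
Log2 fold change of iBRD9 over DMSO with its standard error for the 19 complement genes that passed the filter, with the 9-gene set as squares and others as circles, filled at an adjusted p under 0.05. C4a (3.73) and C4b (-3.79) lie at opposite ends, and C4a, Clu and C1s1 passed the filter only through the iBRD9 libraries.

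Of 19 transcription factors and cytokine receptors known to act on complement genes, mostly from studies of liver, epithelial and immune cells, 18 were tested, 9 fell, 5 rose and 4 did not pass (median -0.34). Of all tested genes, 60.7% were called, 30.9% lower and 29.8% higher. Interferon gamma is known to raise C4, C1r, C1s and C1 inhibitor in many cell types. Irf9, a subunit of the type I interferon transcription complex, fell (10.9 ± 1.07 CPM with iBRD9 and 24.8 ± 2.78 CPM with DMSO, SD, n = 3 each; log2 fold change -1.18, SE 0.114, edgeR adjusted p = 7.11e-05). Stat2, of the same complex, rose (0.50). The receptor chains went apart in both interferon families. Ifngr1 (0.53) and Ifnar1 (0.22) rose, while Ifnar2 (-0.62) and Ifngr2 (-0.20) fell. Ifngr2 was not called with library size alone (-0.09, adjusted p = 0.208), without DMSO replicate 2 or 3, or without iBRD9 replicate 1 or 3 (adjusted p = 0.0802 to 0.0921).

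Of the NF-kB family, which acts on C3 and other complement genes, Relb (4.59 ± 0.757 CPM with iBRD9 and 11.8 ± 4.04 with DMSO, -1.36, SE 0.259) and Rela (-0.66) fell, Nfkb1 rose (0.31) and Nfkb2 did not pass (0.03). Cebpb, a factor of the acute-phase response, fell (9.52 ± 0.870 and 18.2 ± 3.77 CPM with iBRD9 and DMSO, -0.94, SE 0.159), while Cebpd (0.30) did not pass. Stat3 (-0.48) and the tumor necrosis factor receptor gene Tnfrsf1a (-0.62) fell, and Il6st, the signalling chain of the interleukin-6 receptor, rose (0.33). Irf1 had a value of 0.11 and was called with library size alone (0.22, adjusted p = 0.0342, with 0.471 the highest of its alternatives). All 18 were measured in the same libraries as C4b, and their part in its level was not tested.

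**Figure D5:**
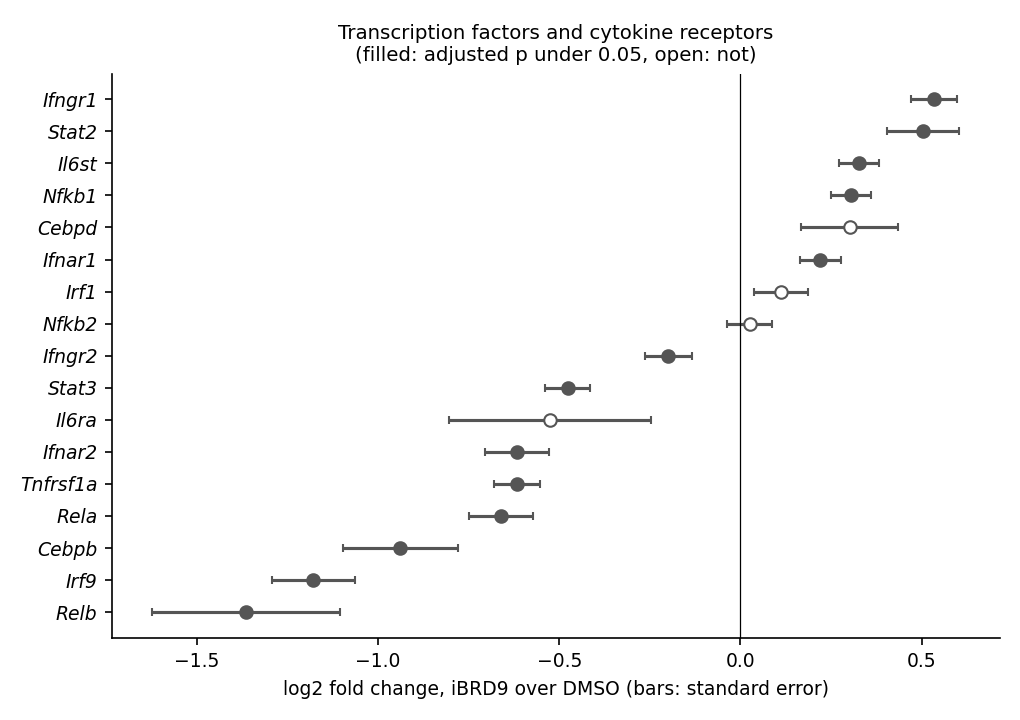
Log2 fold change of iBRD9 over DMSO with its standard error for the tested transcription factors and cytokine receptors named on its axis, filled at an adjusted p under 0.05. Relb (-1.36) and Irf9 (-1.18) are lowest and Ifngr1 (0.53) is highest.

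Cells of other types that express complement genes were looked for through their markers. Of 10 macrophage markers, Ptprc and Tyrobp had no read in any library (0), and the list summed to 17.7 to 18.9 CPM with iBRD9 and 18.9 to 23.5 CPM with DMSO, mostly Lyz2 (11.4 and 13.9 CPM), with 1 of 4 tested markers higher and 1 lower. The higher marker, Csf1r (1.70 CPM with iBRD9 and 0.279 CPM with DMSO), passed the filter only through its iBRD9 libraries, so its call is not read as a result. Of 10 fibroblast markers, 7 were tested, 3 were higher and 2 lower, and Dpt had no read (0). Fap, 1 of the 2 lower, could not pass the filter through its iBRD9 libraries alone (mean of 0.335 CPM). Its call is likewise not read as a result. The fibroblast list summed to 138 to 152 CPM with iBRD9 and 80.6 to 105 CPM with DMSO, mostly Dcn (120 and 51.2 CPM). The endothelial list of 8 markers summed to 52.9 to 55.9 CPM with iBRD9 and 82.9 to 129 CPM with DMSO. It was mostly Vwf, which was lower (49.3 CPM with iBRD9 and 105 CPM with DMSO), while Kdr, the other tested marker, was higher (3.98 CPM with iBRD9 and 0.941 CPM with DMSO). The 10 keratinocyte markers summed to 5.53 to 6.07 CPM with iBRD9 and 9.86 to 10.7 CPM with DMSO, with 1 of 2 tested markers lower and none higher (0) and Krt1, Krt5, Krt15 and Ivl at 0. Beside the counts of all these lists, 29.8% of all tested genes were called higher and 30.9% lower. The part of these markers in the complement results was not tested.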

How the data were processed

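Raw counts of reads for each Ensembl gene were deposited by the authors. Per the submitters' processing notes, CASAVA 1.8.2, Bowtie2 2.4.5 and GRCm39 were used. The counter, its annotation and its strand setting are not stated in any source used here. Total RNA was poly(A)-selected and random-primed with a kit not described as marking strand, per the labels' protocols. Symbols matched 34490 of 35275 IDs through GENCODE M21 on GRCm38, an older build, so no coordinates are given; RefSeq (GRCm38.p6) gave gene neighbours.

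The counts were fitted in edgeR 4.0.16 under R 4.3.3: filterByExpr (minimum count 10), TMM scaling, and the robust quasi-likelihood F-test of iBRD9 against DMSO, with Benjamini-Hochberg adjustment over 13602 genes and a threshold of 0.05. Tests are two-sided, and the SE is the log2 fold change divided by the square root of F. RPKM uses the union of GENCODE exons. Copies were aligned with Biopython 1.88. The alternatives were DESeq2 1.42.0, its size factors, library size alone, other filters, the replicate block, summed copies and each library left out.

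Genes named are the 9 members and their copies, up to 4 called genes per list and direction, those at a mean log2 CPM of at least 4, and the 3 nearest patterns to C4b and C1qbp. Genes near the C4 pair and beside C1qbp, and any other gene named, were chosen after values were seen. Some genes that this rule names are not reported here. The members and lists were chosen with earlier results of these data known.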

Additional observations from a re-analysis of the deposited data

How the results depend on the processing

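C4b and C1qbp were called lower under all 13 alternatives, and no member was called higher under any (0). The members were chosen with this contrast known, so their calls in refits of the same counts support nothing. With the close copies summed C1ra was called as well. Of the further complement genes, 4 were called higher and 3 lower, of 13 tested. Without a filter 11 of 39 tested were called, 5 of them lower, against 8297 of all 22649 genes tested. With 1 CPM in 3 libraries 5 of 10 tested were called, 2 of them higher, against 7794 of all 12247 genes tested. Leaving out 1 library gave 6 to 9 calls of 14 or 15 tested, 4 to 6 higher and 2 to 3 lower. These counts are not read as a result. The genes called without a filter alone, chosen after their values were seen, were Cfi (8, 12 and 15 reads with iBRD9, against 1, 1 and 3 with DMSO), Cd93 (0, 1 and 0 against 7, 10 and 15), Csmd1 (2, 4 and 1 against 8, 9 and 5) and Itgam (7, 1 and 1 against 0, 0 and 0). C1s2 changed sign with DESeq2 (-0.0030), with the replicate block (-0.0085) and without single libraries (-0.25 to 0.27), and Nfkb2 without DMSO replicate 1 (-0.022 to 0.062 over the left-out libraries); neither was called, and the cause was not tested. For same-numbered samples, deviations from the group means correlated at 0.118, 0.0599 and 0.0248. Between samples of unlike number the correlations ran from -0.0996 to 0.0469. Whether a shared number marks a shared culture or batch was not tested. With the replicate block the log2 fold changes of C4b and C1qbp were -3.77 and -0.48. Of all genes 7937 were then called, against 8262 without the block. All genes gave 6865 to 10311 calls over the left-out libraries, the most without DMSO replicate 1. Depth limits C3, Serping1 and Cd55, with 18, 2 and 8 reads over the iBRD9 libraries and 14, 1 and 2 over the DMSO libraries.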
